A study of Mus musculus with 21 samples.

Results

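The cytosolic ribosomal protein genes were followed in 21 single-cell RNA libraries of mouse CD8 T cells in culture. Members were the gene symbols that begin with Rpl or Rps and a digit, together with Rplp0, Rplp1, Rplp2 and Rpsa, and without the Rps6k kinases. The rule found 90 of the 17516 symbols in the count tables. Of these, 77 were canonical ribosomal protein genes, 46 of the large and 31 of the small ribosomal subunit. The other 13 were 5 symbols marked as pseudogenes (Rpl9-ps1, Rpl9-ps6, Rpl10-ps3, Rpl36-ps4 and Rpl36a-ps1), 6 paralogs (Rpl3l, Rpl7l1, Rpl22l1, Rpl36al, Rpl39l and Rps27l), the retrogene Rps27rt and Rps19bp1, which encodes a binding partner of Rps19 and no ribosomal protein. The fusion gene Fau, which joins a ribosomal protein to a ubiquitin-like protein, has a symbol that the rule does not reach.

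The cells were OT1 CD8 T cells, from mice whose T cells carry 1 transgenic receptor for an ovalbumin peptide. The naive library was taken on day 0 without treatment. All other cells had been activated with beads coated with antibodies to CD3 and CD28, and were sampled on day 3, 5 or 10. On days 3 and 5 there was 1 library of activated cells without added cytokine and 1 for each of interleukin-2 (IL-2), IL-15 and IL-2v at 5 and at 50 IU/mL. IL-2v is a mutant IL-2 by its treatment label. On day 10 the 6 cytokine conditions were sampled, and no library without cytokine was analysed. Each condition had 1 library. Differences between conditions therefore have no replicate check, no p-value is given, and every interval covers counting error only. The labels do not say how many mice were pooled.

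Ribosomal proteins join the ribosomal RNAs to form the small subunit, which decodes messenger RNA, and the large subunit, which forms the peptide bond. Their messenger RNAs are known for a terminal oligopyrimidine (TOP) tract, a run of C and T right at the start of transcription through which the mTOR kinase sets their translation. Resting T cells keep many of these messengers untranslated and load them on ribosomes on activation, while ribosome biogenesis factors are made under the control of Myc.

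The start sites of members with wide ranges, of members often among the highest or lowest, and of the paralogs Rps27l and Rpl22l1 beside their partners are shown, as far as the table has them, because the TOP tract is the feature the family is known for. Each line holds the 30 bases from 10 before to 20 after the start given by RefSeq for GRCm38.p6, 5′ to 3′ on the coding strand, and capitals mark the longest unbroken run of C and T.
Rps27, chr3:90213629-90213658, minus strand: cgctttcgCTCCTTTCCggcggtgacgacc
Rps28, chr17:33824543-33824572, minus strand: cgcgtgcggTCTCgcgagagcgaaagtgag
Rpl7a, chr2:26910797-26910826, plus strand: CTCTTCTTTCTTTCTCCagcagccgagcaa
Rpl35, chr2:39005112-39005141, minus strand: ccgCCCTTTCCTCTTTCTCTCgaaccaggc
Rpl31, chr1:39367841-39367870, plus strand: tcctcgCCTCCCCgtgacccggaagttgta
Rps7, chr12:28635934-28635963, minus strand: cggTTTCCacccacctacttccgctgtccc
Rps24, first start, chr14:24490668-24490697, plus strand: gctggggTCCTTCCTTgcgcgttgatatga
Rps24, second start, chr14:24490743-24490772, plus strand: cgccgtagccatcatggtgagTCTCCTCgg
Rpl10, chrX:74270806-74270835, plus strand: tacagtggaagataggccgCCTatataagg
Rpl22, first start, chr4:152324426-152324455, plus strand: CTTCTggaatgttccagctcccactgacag
Rpl22, second start, chr4:152325716-152325745, plus strand: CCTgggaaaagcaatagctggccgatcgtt
Rpl22l1, chr3:28805498-28805527, plus strand: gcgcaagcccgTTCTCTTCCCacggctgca
Rps27l, first start, chr9:66946076-66946105, plus strand: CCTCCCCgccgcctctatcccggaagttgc
Rps27l, second start, chr9:66946403-66946432, plus strand: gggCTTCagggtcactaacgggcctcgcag
Rps2, chr17:24720053-24720082, plus strand: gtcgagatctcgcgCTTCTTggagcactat
Rps15, chr10:80292421-80292450, plus strand: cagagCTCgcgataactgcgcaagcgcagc
The longest run was 9 bases in Rps27, 10 in Rpl22l1, 17 in Rpl7a and 18 in Rpl35, and 9 and 7 bases at the 2 starts of Rps24. It was shorter in the others: 7 and 4 bases at the 2 starts of the paralog Rps27l, 7 in Rpl31, 6 in Rps2, 5 in Rps7, 5 and 3 at the 2 starts of Rpl22, 4 in Rps28, and 3 in Rps15 and Rpl10. In a wider window of 80 bases it was 13 in Rpl31 and Rps7, 10 in Rps2 and Rpl10, 11 in Rps15 and 5 in Rps28. Rps29, Rpl29 and Rpl21 have no entry in the table used.

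RefSeq starts were found for 57 of the 77 canonical members. A run of at least 8 C or T lay within these 30 bases, at any listed start of a gene, in 23 of the 57 (40.4%), against 13.0% of all 27025 gene symbols with a start. In the 80 bases from 30 before to 50 after the start it was found in 45 of the 57 (78.9%), against 32.3% of all. The motif CCGGAAG, searched on both strands over all 300 bases around the start, was present in 24 of the 57 (42.1%) against 9.93% of all. TATAAA was present in 10.5% of them against 15.7% of all, and CACGTG in 10.5% against 8.09%. Annotated starts can lie some bases from the start that a cell uses, so the tracts describe these windows and not the starts in these cells.

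The libraries held 3250 to 7105 cells with a median of 3016 to 5065 unique molecular identifiers (UMIs, each marking 1 captured RNA molecule) per cell. Total UMIs per library ranged from 10589950 to 32648496. Cd3d, a chain of the T cell receptor complex, had a UMI in 93.0% to 99.5% of cells and Cd8b1 in 54.5% to 92.0%. Cd4 had one in at most 1.49%, Ms4a1 of B cells in at most 0.0209%, Lyz2 and Csf1r of myeloid cells in at most 0.126% and Ncr1 of natural killer cells in at most 0.0157%. Other markers of these cells reached more: Cd79b of B cells had a UMI in 0.727% to 7.45% of cells (median 4.30%) and Cd79a in up to 0.489%, and the myeloid markers Cd68 and Itgam in up to 7.39% and 1.66%. The red cell genes Hbb-bt and Hba-a1 had one in up to 0.835% and 0.712%. The natural killer marker Klrb1c had one in up to 13.0%. These markers differed between conditions. On day 10, with 5 and 50 IU/mL, Klrb1c had one in 6.49% and 8.71% of cells under IL-2. It was 1.34% and 13.0% under IL-2v, and 0% and 0.947% under IL-15. Cd8b1 had one there in 71.7% and 54.5% under IL-2, 85.6% and 68.5% under IL-2v, and 91.98% and 91.95% under IL-15. The part of other cells in the results was not tested. Any pair of libraries shared at most 0.340% of the barcodes of the smaller one.

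Canonical members were among the most abundant messengers of these cells. Levels are given as UMIs per 1000000 UMIs of the library (CPM). As UMIs count molecules and not bases, levels were not divided by gene length. All 77 canonical members reached a mean of 20 CPM over libraries, and 74 exceeded 1000 CPM in every library. Members made up 71 of the 100 genes with the highest mean CPM. The mean level ran over 9.36-fold, from 994 CPM for Rpl31, which lies near the exit of the peptide tunnel, to 9308 CPM for Rps29, a short zinc-binding protein of the small subunit. After Rps29 came Rpsa, also known as the laminin receptor precursor, at 8495 CPM, Rpl13 at 8389 CPM, Rpl41, the smallest ribosomal protein, at 7498 CPM and Rpl32 at 7342 CPM. Among the lowest were also Rpl10 at 1228 CPM, Rpl36a at 1729 CPM and Rpl4 at 1764 CPM.

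The mean levels of the paralogs and pseudogene symbols lay below those of the canonical members. Of the 90 members, 86 reached a mean of 20 CPM. The exceptions were Rpl39l at 0.757 CPM, Rpl9-ps1 at 0.302 CPM, and Rpl36-ps4 and Rpl3l, the form of Rpl3 made in striated muscle, at 0.0135 and 0.00927 CPM. The largest of this group were Rpl36al at 922 CPM and Rpl22l1 at 893 CPM, which overlapped the lowest canonical member in single libraries. On day 3 without cytokine Rpl22l1 was 1184 CPM and Rpl31 996 CPM. Counts of some members cannot be assigned without doubt. Of the canonical members, 49 had at least 1 annotated copy of at least 95% identity over at least 50% of the transcript, and Rpl7a had 37, Rps2 27 and Rpl29 27 such copies. For 8 canonical members a copy was itself listed in the count tables. The largest of these was Gm10076, a copy of Rpl41 with 99.5% identity over 65.8% of its transcript, at a mean of 1406 CPM. Rps27rt is identical to Rps27 over 98.8% of the Rps27 transcript, and Rpl10-ps3 to Rpl10 over 86.2%, so that their reads could be split or lost. Exons of Rpl35, Rpl23a and Rpl31 overlap the opposite-strand genes Wdr38 (66.2% of the exonic bases), Tlcd1 (59.7%) and Tbc1d8 (25.3%), and the sources used here do not state whether counting used the strand.

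Ribosomal protein genes together supplied between 27.8% and 42.8% of all UMIs of a library. The naive library stood at 37.4% (95% Clopper-Pearson interval 37.40% to 37.44%). Where a cytokine is given with 2 values in the following, the first belongs to 5 IU/mL and the second to 50 IU/mL. On day 3 the share was 34.2% without cytokine. IL-2 gave 32.4% and 31.0%, IL-2v 31.8% and 29.6%, IL-15 32.6% and 32.0%. All 7 activated libraries of day 3 lay below the naive library, and the 6 with cytokine lay below the one without.

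On day 5 the share was 35.6% without cytokine. IL-2 gave 37.1% and 32.0%, IL-2v 33.0% and 27.8%, IL-15 38.4% and 35.1%. The library with 50 IU/mL IL-2v was the lowest of all 21, and IL-15 and IL-2 at 5 IU/mL lay above the library without cytokine. Leaving out cells with signs of division (a UMI of Mki67 or Top2a), 50 IU/mL IL-15 lay above it as well, by 1.04 points against -0.415 points in all cells, and the differences of 5 IU/mL IL-2v and 50 IU/mL IL-2 were -0.357 and -1.71 points against -2.59 and -3.58. By day 10 the share under IL-2 was 32.0% and 32.5%, under IL-2v 36.0% and 35.7%, under IL-15 41.1% and 42.8%. The IL-15 libraries were the highest of all 21, 9.17 and 10.3 percentage points above IL-2 at the same dose. The spread between replicate cultures is unknown, so the order of neighbouring libraries is a description. The median cell held 1000 to 1909 ribosomal protein UMIs, lowest with 50 IU/mL IL-2 on day 5 and highest with 50 IU/mL IL-15 on day 10.

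**Figure D1:**
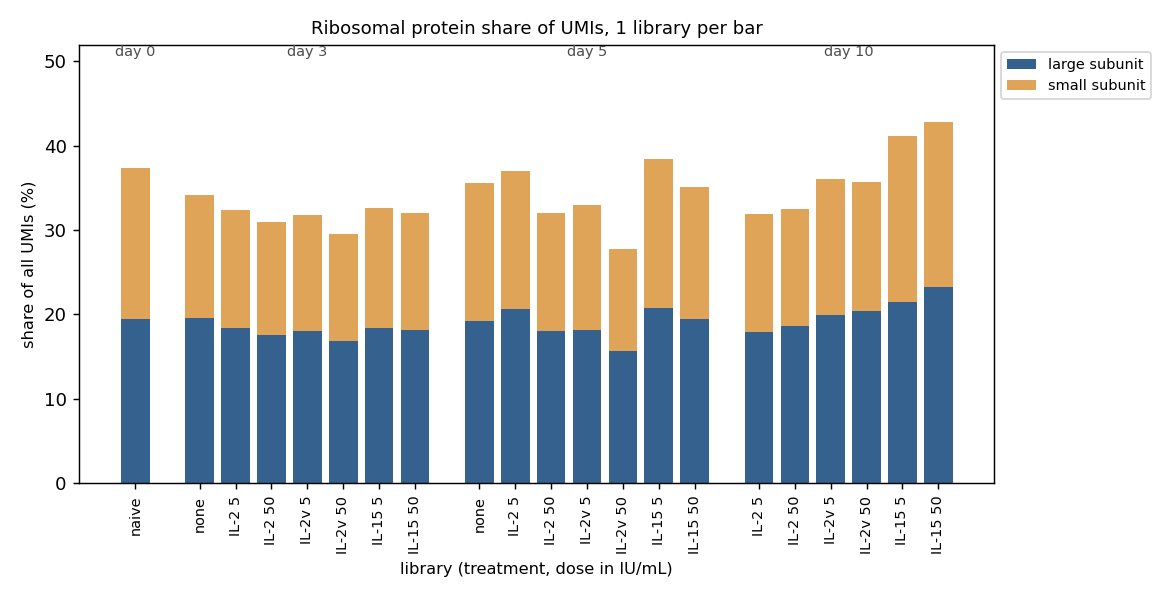
Share of all UMIs (%, y axis) that came from large (blue) and small (orange) subunit members in each of the 21 libraries, named by treatment and dose in IU/mL and ordered by day. The stacked bars run from 27.8% with 50 IU/mL IL-2v on day 5 to 42.8% with 50 IU/mL IL-15 on day 10.

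Other measures of the libraries varied beside the share. Mitochondrial UMIs made up 2.91% to 4.85% and the nuclear RNA Malat1 0.619% to 2.66%. Cells with a UMI of Mki67 or Top2a, which are genes of dividing cells, are called marked cells here and all others unmarked cells. Marked cells made up 3.01% of the naive library, 55.7% to 86.9% of the libraries of day 3, 13.8% to 66.7% of day 5 and 5.21% to 40.6% of day 10. With a stricter mark, at least 3 UMIs of genes of G2 and mitosis, the values were 0.858%, 52.9% to 84.7%, 3.98% to 57.8% and 0.294% to 34.5%. No background share of the mark was set, so a marked cell is one with such a UMI and not a cell shown to divide. The part of mitochondrial RNA and of Malat1 in the differences of the share was not tested.

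The split between subunits also moved. The ratio of large to small subunit UMIs was 1.08 in naive cells and 1.29 to 1.33 in the 7 libraries of day 3. It was 1.17 on day 5 without cytokine. On day 10 it was 1.08 and 1.18 under IL-15, 1.27 and 1.33 under IL-2, 1.23 and 1.32 under IL-2v. Rps27, Rps28 and Rps29 alone made up 10.9% of the ribosomal protein UMIs of naive cells and 3.27% with 50 IU/mL IL-2v on day 10. Without these 3 genes the ratio was 1.40 in naive cells and 1.46 to 1.57 on day 3. On day 5 without cytokine it was then 1.38, and on day 10 it was 1.397 with 5 IU/mL IL-2, 1.32 with 5 IU/mL IL-15 and 1.39 with 50 IU/mL IL-15, all below naive cells (1.398), so the order against naive cells turned for these 4 libraries.

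Marked cells gave a smaller part of their UMIs to ribosomal proteins in every library. Unmarked cells had a higher share than marked cells in 21 of 21 libraries. The difference had a median of 3.95 percentage points. It was smallest with 5 IU/mL IL-15 on day 10, where the share was 41.2% against 40.8%, a difference of 0.347 points, and largest in naive cells, where it was 37.7% against 29.5%, a difference of 8.20 points. Only 144 naive cells were marked. The mark needs a UMI, so deeper cells carry it more readily, and the median UMIs of marked cells were above those of unmarked cells in 21 of 21 libraries, by up to 1.57 times. After cells were thinned to 2000 UMIs, which left out the 57 to 393 shallower cells of each library, the direction was the same in 21 of 21 libraries and the median difference was 4.08 points. The stricter mark gave the same direction in 21 of 21 libraries with a median of 4.71 points.

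**Figure D2:**
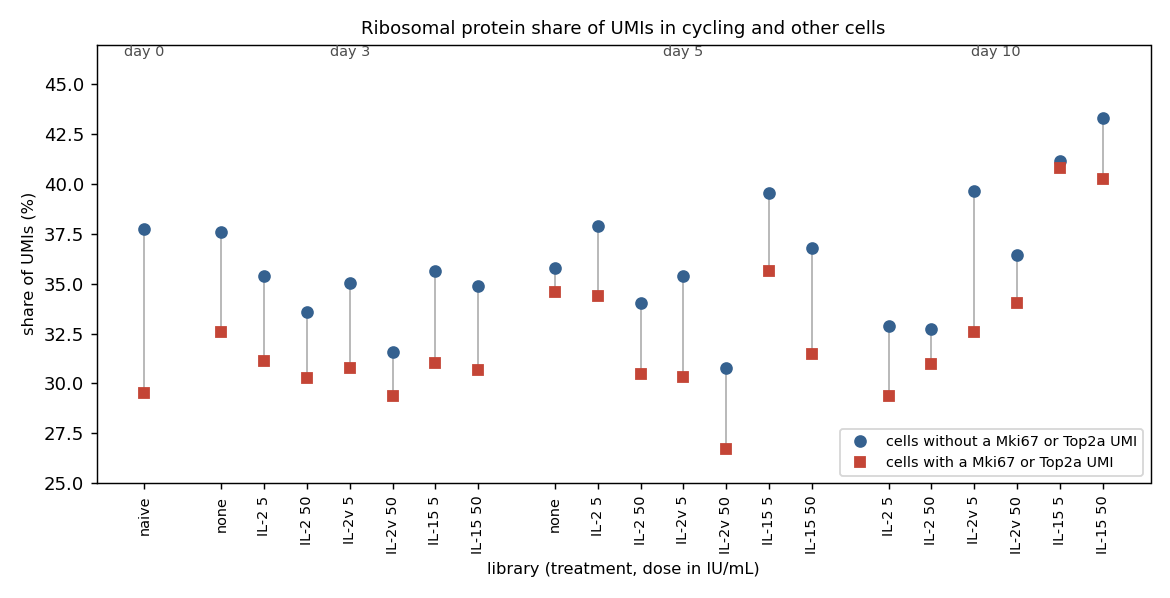
Ribosomal protein share of UMIs (%, y axis) in cells with (red squares, marked) and lacking (blue circles, unmarked) a UMI of Mki67 or Top2a, by library. The blue circle lies above the red square in 21 of 21 libraries, with gaps from 0.347 to 8.20 points.

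Among the members, 34 of the 77 canonical genes were lower in marked cells in all 21 libraries and none was higher in all, where 2.35% of the 5495 genes with a mean of 20 CPM were lower in all and 9.52% higher in all. The median log2 difference was -0.18 over canonical members and 0.06 over all these genes. Rps27 lay lowest, with a median of -0.42 (range -0.52 to -0.10), followed by its retrogene Rps27rt at -0.31 and the small subunit genes Rps15a at -0.29 and Rps24 at -0.29. Rpl31, at 0.10, was among the highest canonical members. The paralogs Rps27l at 0.27 and Rpl7l1, a factor close to Rpl7, at 0.19 lay above all canonical members. Among unmarked cells, the share was still 31.6% with 50 IU/mL IL-2v and 37.6% without cytokine on day 3, and on day 10 it reached 43.3% with 50 IU/mL IL-15.

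Once the total of the family was taken out, by expressing each member per 1000000 ribosomal protein UMIs, the members differed in how steady they were. The range over the 21 libraries had a median of 0.75 on the log2 scale over canonical members. It was at least 1 in 19 and under 0.5 in 12. The narrowest were Rpl23 (0.31), Rps23 (0.31), Rps20 (0.41), Rps27a (0.41), which is made as a fusion with ubiquitin, and Rpl27 (0.43). Rpl23, which also binds Mdm2, stayed between 16985 and 21060 on that scale, with a median of 18584. In CPM, before this correction, 25 of 77 canonical members (32.5%) had a range of at least 1 on the log2 scale, against 75.5% of the 5495 genes, and the median range was 0.91 against 1.34.

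The widest canonical range was that of Rps29 (2.07), with 11613 per 1000000 with 50 IU/mL IL-2v on day 10, a median of 26938 and 48712 in naive cells. Rps27 had a range of 1.86, from 8289 with 50 IU/mL IL-2 on day 3 through a median of 11809 to 30155 in naive cells. Rps28 ran from 12583 with 50 IU/mL IL-2v on day 10 to 30472 in naive cells (range 1.28). All 3 are short small subunit proteins and all 3 stood highest in the naive library.

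Others stood low there. Rps2, which lines the entry of messenger RNA, was 6300 per 1000000 in naive cells, had a median of 10472 and reached 16866 with 50 IU/mL IL-2 on day 3 (range 1.42). Rps15, in the head of the small subunit, was lowest on day 5 without cytokine at 4814 and highest with 50 IU/mL IL-2 on day 3 at 12317 (range 1.36). Rpl7a was 3407 in naive cells, 3066 with 5 IU/mL IL-15 on day 10 and up to 7361 with 5 IU/mL IL-2 on day 3 (range 1.26). Rps2 and Rpl7a have 27 and 37 annotated copies.

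**Figure D3:**
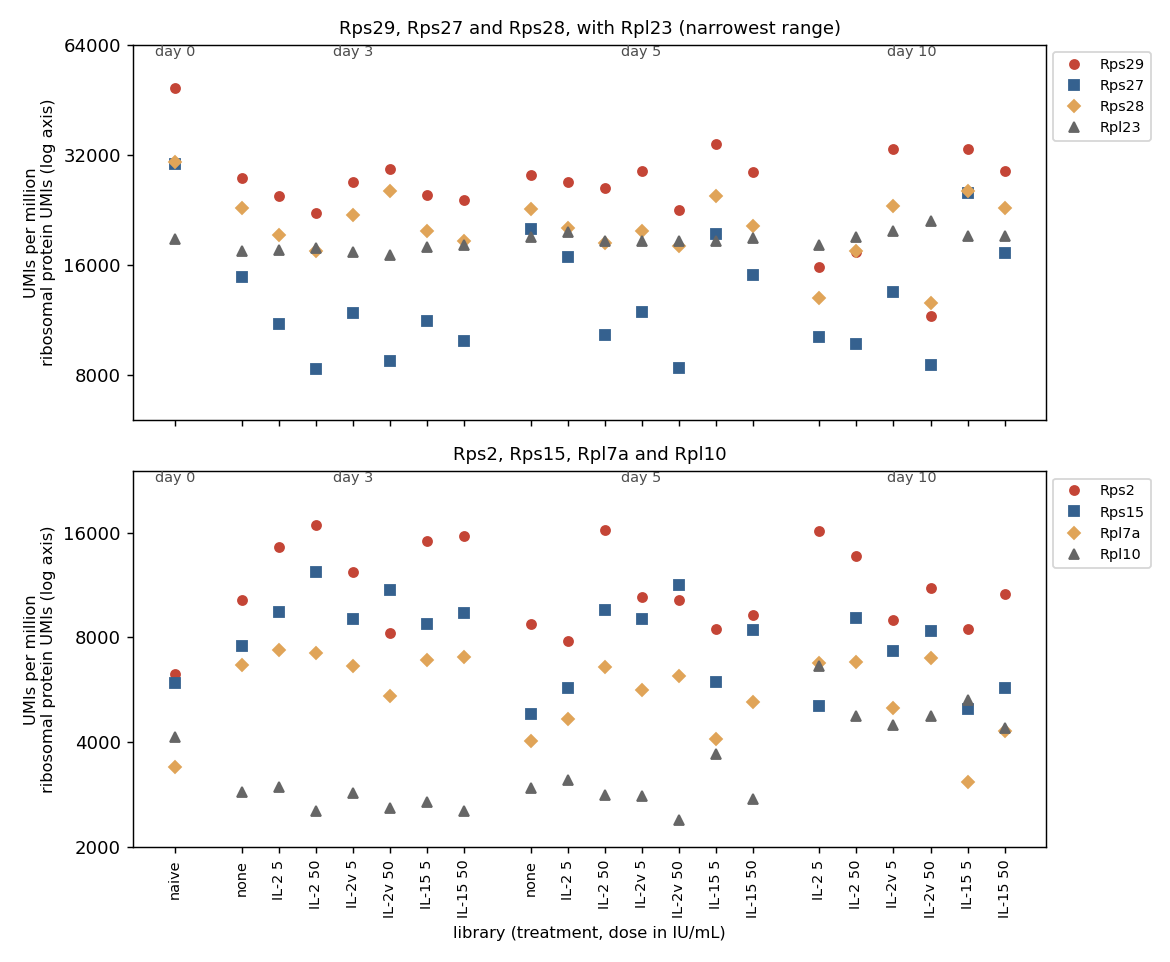
Level of single members per 1000000 ribosomal protein UMIs (y axis, log scale) in each library. Upper panel: Rps29, Rps27 and Rps28, all highest in naive cells, with Rpl23, which stays between 16985 and 21060. Lower panel: Rps2, Rps15, Rpl7a and Rpl10, of which Rpl10 is higher in the 6 libraries of day 10 (4387 or more) than in any library of days 3 and 5 (3708 or less).

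Rpl10, which completes the large subunit near the peptidyl transferase centre, differed by day. Its level was 1554 CPM in naive cells, 767 to 986 CPM in the 7 libraries of day 3, 666 to 1424 CPM in the 7 of day 5 and 1548 to 2176 CPM in the 6 of day 10. The libraries of day 10 lay above all libraries of days 3 and 5. Between libraries of equal cytokine and dose, day 10 exceeded day 5 in all 6 pairs, by 0.61 to 1.35 on the log2 scale, with a median of 0.85. Rpl10-ps3, its near-identical copy, was at most 72.0 CPM in any library. Day and the handling of each day's libraries cannot be told apart.

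The P-stalk recruits elongation factors to the large subunit. Of its genes, on the scale of 1000000 ribosomal protein UMIs, Rplp2 had a log2 range of 0.44, Rpl12, which anchors it, 0.47, Rplp1 0.52 and Rplp0 0.91. Rplp0 was 5248 CPM in naive cells, had a median of 6697 CPM and ran from 4855 CPM with 50 IU/mL IL-2v on day 5 to 8449 CPM with 5 IU/mL IL-2 on day 10. Rpl5 and Rpl11 bind the smallest RNA of the large subunit and, when free, the p53 inhibitor Mdm2. Rpl5 was 1210 CPM on day 5 without cytokine and up to 2419 CPM with 5 IU/mL IL-15 on day 10. Rpl11 was 3391 to 4740 CPM. The ranges of Rpl5 and Rpl11 were 0.9996 and 0.48 on log2(CPM + 1). Rps6, the substrate of the S6 kinases downstream of mTOR, was 1896 CPM on day 5 without cytokine, had a median of 2396 CPM and reached 3170 CPM with 50 IU/mL IL-2v on day 10. Rpl13a, which is known in human cells for a role outside the ribosome in the interferon-gamma response, was 3213 to 4817 CPM. Rack1, a small subunit scaffold that the symbol rule does not include, was 2511 CPM on day 5 without cytokine and in naive cells and up to 3566 CPM with 50 IU/mL IL-2v on day 10.

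Rps27 and its paralog Rps27l, a target of p53, gave the largest contrast between related members. Rps27 lies at chr3:90212522-90213651 (minus strand) and Rps27l at chr9:66946086-66949516 (plus strand) in GENCODE on GRCm38, and both have 252 coding bases. Rps27 was 11284 CPM in naive cells (95% exact Poisson interval 11236 to 11333). On day 3 it was 5073 CPM without cytokine, and under IL-2 3559 and 2565 CPM, under IL-2v 3761 and 2575 CPM, under IL-15 3656 and 3170 CPM. The 7 libraries of day 3 were all below naive cells, and the 6 with cytokine were below the one without.

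On day 5 Rps27 was 7108 CPM without cytokine, and under IL-2 6205 and 3287 CPM, under IL-2v 3911 and 2322 CPM, under IL-15 7447 and 5260 CPM. On day 10 it was 3246 and 3154 CPM under IL-2, 4869 and 3037 CPM under IL-2v, 10353 and 7388 CPM under IL-15. The higher dose had the lower level in 9 of 9 pairs of equal day and cytokine, and IL-15 lay above IL-2 and above IL-2v in 11 of 12 pairs of equal day and dose. The exception was 5 IU/mL on day 3, where IL-2v had 3761 CPM and IL-15 3656 CPM.

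Rps27l was 124 CPM in naive cells, its lowest level, and 159 CPM with 5 IU/mL IL-15 on day 10. It was 277 to 404 CPM on day 3, 200 to 303 CPM on day 5 and up to 473 CPM with 5 IU/mL IL-2v on day 10. Set against Rps27, Rps27l was 1.10% in naive cells, 1.53% with 5 IU/mL IL-15 on day 10, 7.79% at the median and 15.7% with 50 IU/mL IL-2v on day 3, a 14.3-fold span. On day 10 the value was 8.14% and 13.6% under IL-2, 9.72% and 14.5% under IL-2v, 1.53% and 3.12% under IL-15. The IL-15 libraries were below the other 4 there. The retrogene Rps27rt was 2.10% to 4.90% of Rps27, a span of 2.34-fold.

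**Figure D4:**
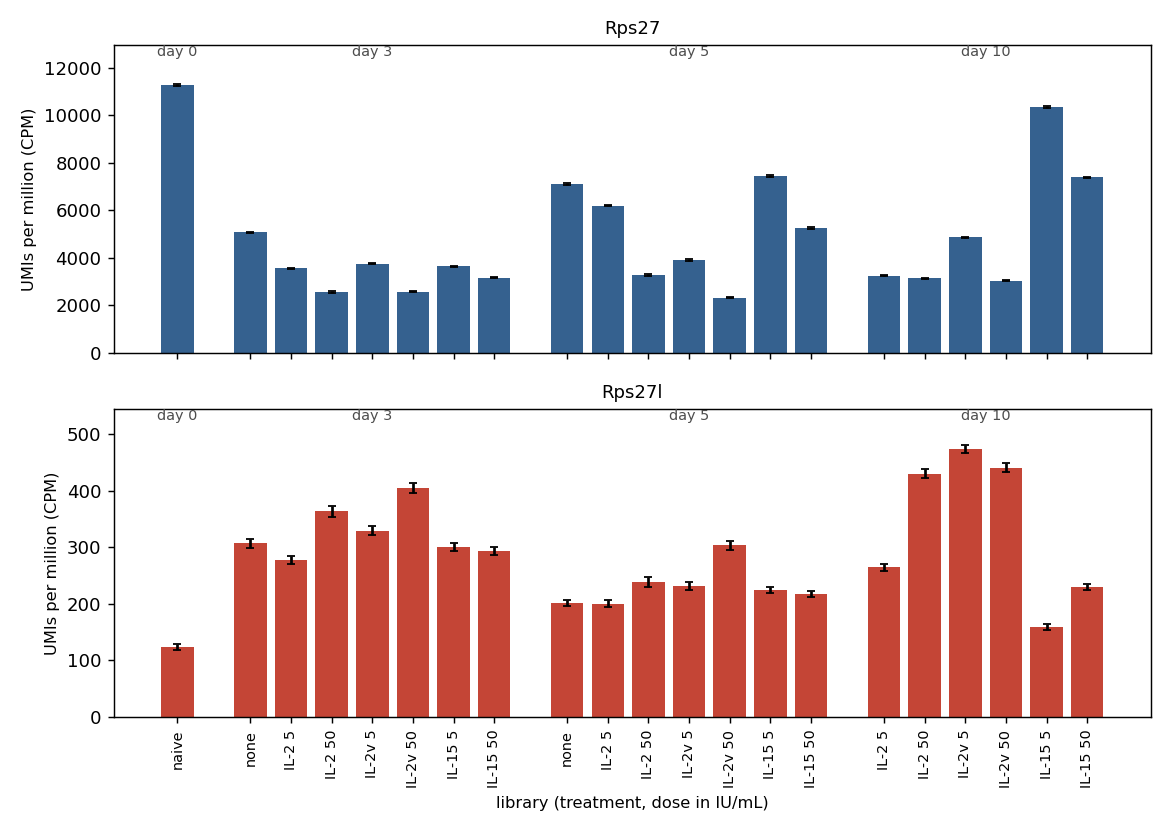
Level of Rps27 (upper panel) and Rps27l (lower panel) in CPM (y axes from 0) by library, with 95% exact Poisson intervals. Rps27 is highest at 11284 CPM in the naive library, where Rps27l is lowest at 124 CPM.

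The other 3 paralogs with a mean of at least 20 CPM had narrower spans against their partners. Rpl22 is known for its need in the development of alpha-beta T cells, and its paralog Rpl22l1 is regulated by it. Rpl22l1 was 19.5% of Rpl22 with 5 IU/mL IL-2 on day 5, 37.2% at the median and 51.4% with 50 IU/mL IL-2v on day 3, a 2.64-fold span. It was 47.3% in naive cells, 43.2% on day 3 and 26.7% on day 5 without cytokine. Rpl36al was 34.3% to 79.0% of Rpl36a and Rpl7l1 1.42% to 3.68% of Rpl7.

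Comparisons between libraries were made on log2(CPM + 1). CPM are parts of a total of which the family supplied 27.8% to 42.8%. A lower share of the family therefore raises the CPM of other genes by calculation. Medians and shares of all genes, and the values of other gene lists, are thus not independent of those of the family. A gene entered where it averaged at least 20 CPM in either arm, which all 77 canonical members did in every comparison. Differences of at least 0.5 in size (1.41-fold) were counted, and comparisons over several pairs also asked for the same sign in all pairs. The 90 members include near-copies, so counts are given for canonical members. Counts with other cell filters, other scaling or a day left out stand without a share of all genes, which was not counted there.

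Between activated cells of day 3 without cytokine and naive cells, members differed in both directions, and a smaller part of them than of all genes was past 0.5. The median log2 difference was -0.12 over canonical members and -0.11 over all 6171 genes, with 30 members higher (43.8% of all genes) and 47 lower (56.2% of all genes). At least 0.5 higher were 6 members against 22.2% of all genes, and at least 0.5 lower were 10 against 27.5%. Lowest were Rps27 (-1.15), Rps29 (-0.95), Rps24 (-0.83), Rps7 (-0.80) and Rpl10 (-0.66). Rps24 and Rps7 are small subunit proteins known for a part in the processing of that subunit's RNA. Highest were Rpl7a (0.84), Rpl41 (0.80), Rpl10a (0.60), Rpsa (0.57) and Rps2 (0.57). Marked cells were 3.01% of the naive library and 59.96% of the other, and 0.858% and 58.6% with the stricter mark. In unmarked cells 10 members were at least 0.5 higher and 5 lower, against 6 and 10 in all cells. The share of all genes was not counted there, so these counts are not set against it. With at most 5% mitochondrial UMIs 5 were lower. Among unmarked cells the family's share was 37.7% and 37.6%, a difference of -0.157 points, where it was -3.24 points in all cells.

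From day 3 to day 5 without cytokine the median was 0.04 over canonical members and 0.00 over 5785 genes, with 43 higher (49.9% of all genes) and 34 lower (50.1%). At least 0.5 higher were 9 members (15.9% of all genes) and lower 10 (21.2%). In unmarked cells 28 members were higher at any size and 3 at least 0.5 higher, against 43 and 9 in all cells, with no count over all genes there. The difference in the family's share turned to -1.82 points, against 1.37 points in all cells. At most 5% mitochondrial UMIs left 5 members at least 0.5 higher, and TMM scaling (trimmed mean of M-values, which sets libraries to a common level over most genes) 5 at least 0.5 lower. Lowest were Rpl35 (-0.92), Rpl4 (-0.77), Rpl7a (-0.67), Rpl41 (-0.66) and Rpl14 (-0.61), all of the large subunit. Highest were Rps7 (0.77), Rps24 (0.73), Rpl21 (0.66) and Rpl18 (0.65). Rps24 and Rps7 were thus among the 5 lowest in activated cells of day 3 and among the 5 highest on day 5. Both comparisons use the library of day 3 without cytokine, so the opposite signs are not independent.

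**Figure D5:**
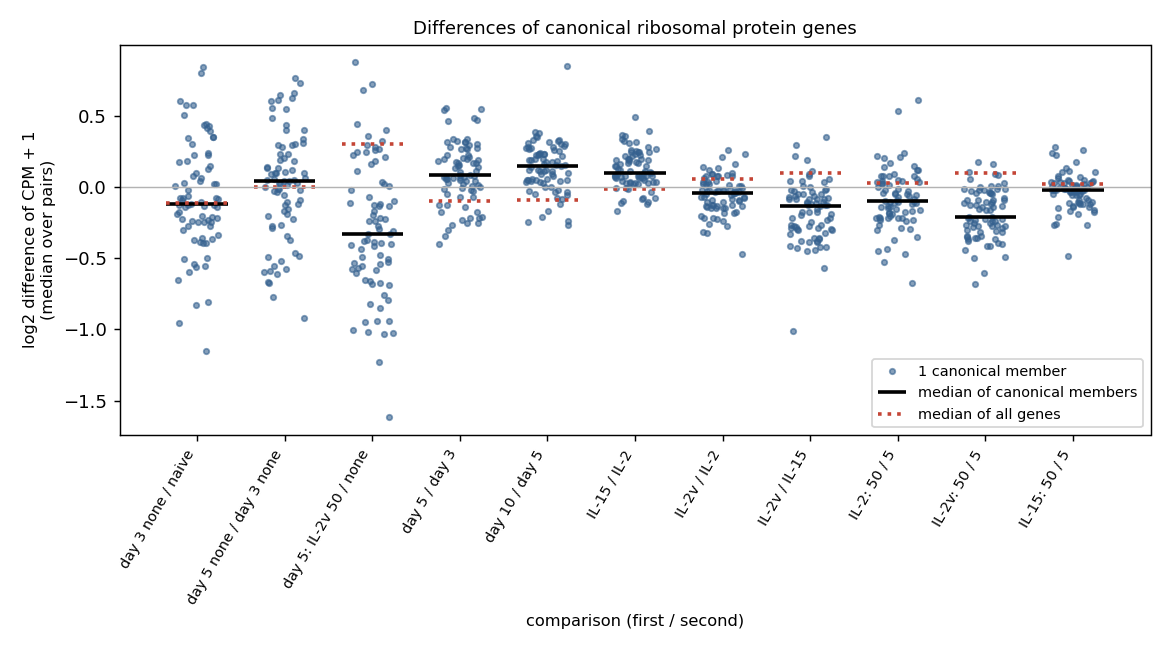
Log2 difference (CPM + 1, median over the pairs of a comparison, y axis) of the 77 canonical members, 1 point each, in 11 comparisons (x axis, first against second condition), with the median of the members (black) and of all genes (dotted red). The members' median lies below that of all genes for IL-2v at 50 IU/mL on day 5, for IL-2v against either cytokine and for the higher dose, and above it for the later day and for IL-15 against IL-2.

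With cytokine on day 3 most members were lower than without, by small amounts, while the median of all genes was higher. The 6 comparisons with the library without cytokine share that library. Their medians over canonical members were -0.04 and -0.08 under IL-2, -0.08 and -0.19 under IL-2v, -0.03 and -0.04 under IL-15, where the medians over all genes were 0.09, 0.19, 0.09, 0.21, 0.07 and 0.10 in the same order. With TMM scaling the members' medians were -0.13, -0.23, -0.16, -0.37, -0.11 and -0.15, and those of all genes lay between -0.02 and 0.03. Rps27 was among the 5 lowest in all 6, from -0.43 to -0.98. Rps2 was the highest with both doses of IL-2 (0.43 and 0.57) and of IL-15 (0.50 and 0.51). It also led with 5 IU/mL IL-2v (0.17). With 50 IU/mL IL-2v it went the other way and was lower than without cytokine by over 0.5. There it held 57669 of 23617485 UMIs, against 78018 of 22249358 without cytokine.

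On day 5 the comparison of 50 IU/mL IL-2v with no cytokine gave the largest shift of the family. The median was -0.33 over canonical members and 0.30 over 6389 genes, and 56 members were lower (35.5% of all genes). At least 0.5 lower were 27 members (15.2% of all genes) and at least 0.5 higher 3 (40% of all genes), and 6 were at least 1 lower (5.53% of all genes). Lowest were Rps27 (-1.61), Rpl29 (-1.23), Rpl18 (-1.03), Rpl21 (-1.03) and Rps15a (-1.02). Highest were Rps15 (0.87), Rpl5 (0.72), Rpl31 (0.68), Rpl35 (0.44) and Rpl4 (0.40). Marked cells were 66.7% and 13.8% of these libraries, and 57.8% and 3.98% with the stricter mark. In unmarked cells the share of the family was 30.8% and 35.8%, and 16 members were at least 0.5 lower. With TMM scaling 48 were at least 0.5 lower and 1 higher, with medians of -0.67 over members and -0.09 over all genes. The other 5 cytokine libraries of day 5 had medians of 0.03 and -0.11 under IL-2, -0.07 under 5 IU/mL IL-2v, 0.10 and 0.02 under IL-15, where the medians over all genes were -0.13, 0.11, 0.08, -0.08 and 0.01. With TMM scaling the members' medians were 0.07, -0.26, -0.23, 0.14 and -0.08, which turns the sign for 50 IU/mL IL-15, and those of all genes -0.09, -0.06, -0.09, -0.03 and -0.10.

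Between cytokines, at equal day and dose, the family stood highest with IL-15. IL-15 against IL-2 had a median of 0.10 over canonical members and -0.01 over 5718 genes. There were 65 members higher (47.9% of all genes) and 17 higher in all 6 pairs (7.68% of all genes), none of them by a median of at least 0.5 (2.1% of all genes). Highest were Rps27 (0.49), Rpl23a (0.39), Rps7 (0.36), Rps15a (0.35) and Rps29 (0.34), and lowest Rpl7a (-0.17), Rpl28 (-0.12), Rpl10a (-0.11), Rpl31 (-0.10) and Rpl36 (-0.10). The share was higher with IL-15 in 6 of 6 pairs, by 0.224 and 1.04 points on day 3, 1.34 and 3.16 on day 5, and 9.17 and 10.3 on day 10.

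IL-2v against IL-15 had a median of -0.13 over members and 0.10 over 5810 genes, with 64 lower (36% of all genes) and 31 lower in all 6 pairs (8.02% of all genes). Higher were 13 members, 21 without day 5 and 6 with TMM scaling. Lowest were Rps27 (-1.01), Rpl29 (-0.57), Rpl9 (-0.45), Rpl18 (-0.45) and Rpl21 (-0.43). Rpl29 was the single member that was at least 0.5 lower and below 0 in each of the 6 pairs (2.7% of all genes), since Rps27 was lower in 5 of 6. Highest were Rpl35 (0.35), Rpl31 (0.29), Rpl28 (0.22) and Rps15 (0.19). The share was lower with IL-2v in 6 of 6 pairs, with differences from -0.781 to -7.37 points. In unmarked cells it was also lower in 6 of 6, from -0.605 to -6.89 points. With 5 IU/mL on day 10 the difference was -5.08 points in all cells and -1.51 points in unmarked cells, and marked cells were 40.6% and 5.21% of these libraries.

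IL-2v against IL-2 had a median of -0.04 over members and 0.06 over 5839 genes, with 52 lower (40.4% of all genes), 1 higher in all 6 pairs (17% of all genes) and none lower in all 6 (4.21%). The pairs went different ways. Members with a median above 0 were 25 over all pairs, 49 without day 5, which turns the direction, and 16 without day 10. The difference in share was -0.557 and -1.39 points on day 3, -4.10 and -4.21 points on day 5, and 4.08 and 3.24 points on day 10. Lowest was Rps2 (-0.47), followed by Rpl9 (-0.32), Rps3 (-0.32), Rpl18 (-0.27) and Rpl29 (-0.26), and highest Rpl35 (0.26), Rpl23a (0.23) and Rpl36a (0.21).

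In the median over the 3 days the higher dose went with a lower level of most members, by most for IL-2v, but the days differed. With IL-2v the median over the 3 days was -0.21 over members and 0.10 over 5913 genes, with 68 lower (36.9% of all genes) and 15 lower on all 3 days (15.8% of all genes), where 3 were higher on all 3 (21.3%). With IL-2 it was -0.10 against 0.03, with 51 lower (47.4% of all genes), and 26 lower (20.9%) and 11 higher (21.8%) on all 3 days. With IL-15 it was -0.02 against 0.02, with 49 lower (45.4% of all genes), and 23 lower (16.6%) and 11 higher (20.5%) on all 3 days. Without day 5, 43 of 77 members were higher at the higher dose of IL-15, which turns the direction. For IL-2v 9 members were higher over the 3 days, 22 without day 3 and 31 without day 5, so most were still lower. For IL-2 they were 20 to 34 with 1 day left out, against 26. On day 10 alone, the 9 canonical members with at most 300 coding bases, named below, had medians of -0.61 with IL-2v, 0.32 with IL-2 and 0.03 with IL-15. The medians of the other canonical members were 0.10, -0.004 and 0.05 in the same order. Rps27 was -0.68 with IL-2v, -0.47 with IL-2 and -0.49 with IL-15, and Rps29 -0.61 with IL-2v. The highest were Rpl26 with IL-2v (0.18), Rpl31 with IL-2 (0.61) and Rpl23a with IL-15 (0.28). Rps15 was among the 5 highest for all 3 cytokines, at 0.16, 0.53 and 0.26. The share was lower at 50 IU/mL in 7 of 9 pairs, the exceptions being IL-2 and IL-15 on day 10, higher by 0.516 and 1.67 points. In unmarked cells IL-2 on day 10 turned to -0.109 points, and IL-15 remained higher at 2.18 points. Marked cells differed with dose as well, for example 18.7% and 50.4% under IL-2 and 39.8% and 66.7% under IL-2v on day 5, and 40.6% and 25.01% under IL-2v on day 10.

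Days were compared between libraries of equal cytokine and dose, called cultures here without a claim that the same cells were followed. In these cultures most members stood higher on the later day. Day 5 against day 3 had a median of 0.08 over members and -0.10 over 5912 genes, with 54 higher (38.8% of all genes) and 23 higher in all 6 cultures (12.5% of all genes). Highest were Rps7 (0.55), Rps27 (0.54), Rpl39 (0.54), Rps13 (0.48) and Rps24 (0.47), and lowest Rps2 (-0.40), Rpl41 (-0.34), Rpl6 (-0.30), Rpl8 (-0.27) and Rpl28 (-0.26). The share was higher on day 5 than on day 3 in 5 of 6 cultures, by 1.03 to 5.78 points, and differed by -1.80 points with 50 IU/mL IL-2v. Marked cells made up 55.7% to 86.9% of these cultures on day 3 and 18.7% to 66.7% on day 5. In unmarked cells the 5 differences were 0.366 to 3.91 points and that of 50 IU/mL IL-2v -0.800 points. Day 10 against day 5 had a median of 0.15 against -0.09 over 5676 genes, with 62 higher (38.7% of all genes) and 13 higher in all 6 cultures (4.72% of all genes). Rpl10 (0.85) was the single member past 0.5 with the same sign in all cultures (1% of all genes). The share was higher on day 10 than on day 5 with IL-15 and IL-2v, by 2.73 to 7.96 points, higher by 0.5002 points with 50 IU/mL IL-2 and different by -5.10 points with 5 IU/mL IL-2. In unmarked cells the direction turned with 50 IU/mL IL-2, to -1.31 points, and the other 5 kept theirs. Marked cells were 50.4% of that culture on day 5 and 13.4% on day 10.

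Across the 22 comparisons, which share libraries, Rps27 was among the 5 lowest members in 16 and Rpl29 in 10. Rps15 was among the 5 highest in 14 and Rpl31 in 9. At the other end stood Rps27 in 3, Rpl29 in 0, Rps15 in 1 and Rpl31 in 2, and Rpl35 was at each end in 6. The end that a member takes depends on which condition is put first. Rpl31 and Rpl35 are members with opposite-strand overlaps, and Rpl29 has 27 annotated copies.

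Short members differed in the same direction in some comparisons. The 9 canonical members with at most 300 coding bases were Rpl37, Rpl37a, Rpl38, Rpl39, Rpl41, Rps21, Rps27, Rps28 and Rps29, a limit chosen after the values were seen. In the 6 cytokine libraries of day 3, all 9 were below the shared library without cytokine, as were 49 to 66 of all 77 members. In the order IL-2, IL-2v and IL-15, members lower were 49, 54, 66, 64, 51 and 50, against 30.6%, 34.2%, 31.1%, 33.5%, 34.8% and 32.5% of all genes. The median of the 9 lay below that of the other members in 5 of the 6, and above it with 50 IU/mL IL-2v (-0.16 against -0.20). From day 5 to day 10 with 5 IU/mL IL-2, all 9 were lower, with a median of -0.85 against -0.16 for the other members, and Spearman's rho between coding length and the difference was 0.863 over the 77 members. With 5 IU/mL on day 10, IL-2v exceeded IL-2 in all 9, with medians of 0.76 and 0.12 and a rho of -0.781. These are the extremes of 39 pairs of libraries, over which rho had a median of -0.03, and all 9 members went 1 way in 14 of the 39. The rho values describe genes of 1 pair of libraries each, which share the library's depth and chemistry, and give no measure of chance. The library of 5 IU/mL IL-2 on day 10 had 3.65% mitochondrial UMIs and 0.969% Malat1, within the range of the others, and the part of RNA quality in these differences was not tested.

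Genes of the same pathway were read from fixed lists. Of 25 translation factor and TOP symbols, 24 were in the tables, and their summed level was 33430 to 43828 CPM. On activation 7 of the 24 were at least 0.5 higher (22.2% of all genes) and 2 lower (27.5%), with a median of 0.15. Eef2, the elongation factor that moves the ribosome along, was 1084 CPM in naive cells and 2408 CPM on day 3 without cytokine, and Tpt1, a TOP messenger itself, was 9113 and 4261 CPM. With 50 IU/mL IL-2v on day 5 against no cytokine, 9 were at least 0.5 higher (40% of all genes) and 2 lower (15.2%), with a median of 0.07. Fau ran from 5364 to 9951 CPM over the 21 libraries.

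The 50 ribosome biogenesis genes, which make and assemble the ribosomal RNA, ran the other way from the family in some comparisons and the same way in others. Their summed level was 3111 CPM in naive cells, 2750 CPM on day 3 without cytokine, 7194 CPM with 50 IU/mL IL-2v on day 3, its highest, and 5386 CPM with 50 IU/mL IL-2v on day 5, where the family's share was lowest. With 50 IU/mL IL-2v on day 5 against no cytokine, 29 of the 43 with at least 20 CPM in either arm were at least 0.5 higher (40% of all genes) and 1 lower (15.2%), with a median of 0.85, where the canonical members had 3 higher and 27 lower. On day 3 the same dose against no cytokine gave 44 of 49 higher (27.3% of all genes) and none lower (8.75%). Nucleolin (Ncl) was 741 CPM without cytokine and 1864 CPM there. On activation 3 of 44 were higher (22.2% of all genes) and 21 lower (27.5%), with a median of -0.47. On activation the family's median, -0.12, had the same sign. With 50 IU/mL IL-2 on day 5 against no cytokine the list's median was -0.61 and the family's -0.11, and for IL-15 against IL-2 they were 0.37 and 0.10. IL-2v exceeded IL-15 by a median of 0.27 in this list, where it was -0.13 over canonical members.

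The genes whose profile over the 21 libraries was nearest to that of the summed family, by the root mean square difference of centred log2 values, were Lamtor2 (0.139), Cox14 (0.144), Commd6 (0.148), Cluap1 (0.154) and Eef1b2 (0.155). The measure is small for steady genes too, and a gene with no change over the libraries would score close to these values. A place in this list therefore does not show that a gene moved with the family.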

How the data were processed

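The files are the authors' deposited tables of raw counts, 1 per library, in which each value is a whole number of UMIs per gene symbol and barcode. The submitters' processing notes name Cell Ranger, Seurat 3.0.2, Seurat 4.0.1 and mm10, with no role or order. The annotation, the use of strand and any removal of doublets are not given in the sources used here. Groups follow the sample titles. The treatment labels of 6 libraries name interleukin-3 in place of 50 IU/mL IL-2 and interleukin-16 in place of 50 IU/mL IL-15. The extraction protocol in the labels describes sorted tumour cells, while the growth protocol describes culture, and the libraries were treated as cultured. Day 7 was not analysed here.

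Kept were 106456 of 106458 barcodes: those reaching 1000 UMIs and 500 genes, with no more than 10% of UMIs mitochondrial. No doublet caller was run, and cells above 2 times the median UMIs of their library were left out as an alternative. UMIs were summed per library and scaled to CPM, and differences were taken on log2(CPM + 1), a scale that understates changes of low genes. With 1 library per group no model was fitted. The calculation of differences was checked on simulated data with 200 changed genes, with TMM scaling and not with the scaling to total UMIs used for the results. Positions and copies came from GENCODE vM21 and start sites from RefSeq (65 of the 90 members matched by symbol). Python 3.11.15, numpy 2.4.6, pandas 2.3.3 and scipy 1.17.1 were used.

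The members and lists were chosen with earlier results of these data known. Named were the 5 canonical members highest and lowest in mean CPM, the 5 widest and narrowest in relative range, the 5 highest and lowest in each main comparison, paralogs beside their partners, genes of the P-stalk, the smallest RNA's binding proteins, Rps6, Rps27a and Rpl13a, and the 5 genes with the nearest profile. Some genes that this rule names are not reported here. Other members were named after their values were seen. Alternatives were other cell filters, unmarked cells, means over cells, other denominators, TMM scaling (trimmed mean of M-values), totals without ribosomal protein and mitochondrial genes, other pseudocounts and filters, and each day left out.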

Additional observations from a re-analysis of the deposited data

Results flagged for a closer look

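The difference in ribosomal protein share between IL-2v and IL-2 had opposite signs on different days. Both pairs of day 3 and both of day 5 were lower with IL-2v, and both of day 10 were higher. The mean difference of day 3 minus that of day 10 was -4.634 percentage points, and that of day 5 minus that of day 10 was -7.82 points. The share of marked cells (a UMI of Mki67 or Top2a) was 66.2% and 86.9% with IL-2v against 62.8% and 73.8% with IL-2 on day 3, 39.8% and 66.7% against 18.7% and 50.4% on day 5, and 40.6% and 25.01% against 18.2% and 13.4% on day 10. Its part in the result was not tested. In unmarked cells, all others, the difference in share was also below 0 in the 4 pairs of days 3 and 5 and above 0 in both pairs of day 10, at 6.79 and 3.69 points. This difference between days was not tested.

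The ratio of large to small subunit UMIs was higher on day 10 than on day 5 at both doses of IL-2 and of IL-2v, and lower at both doses of IL-15. The mean change with IL-2 exceeded that with IL-15 by 0.103, and the mean change with IL-2v exceeded it by 0.0884. Without Rps27, Rps28 and Rps29 the ratio was lower on day 10 with 5 IU/mL IL-2 (1.397 against 1.47 on day 5) and with 50 IU/mL IL-2v (1.43 against 1.46), so 2 of these 4 directions rest on those 3 genes. These differences between cytokines were not tested.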

How the results depend on the processing

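Of 197 alternative values of counts and shares, 35 moved. Of 3024 alternatives for single members, 479 moved the log2 difference by at least 0.1, and none reversed a difference of at least 0.5. All barcodes, no expression filter and a pseudocount of 10 CPM gave 308 alternatives each and moved none, as they hardly enter these differences. TMM moved 145 and left 163. Leaving out a day moved 59 and left 25 for day 3, 40 and 44 for day 5, and 41 and 43 for day 10. The lowest and highest library share were 28.1% and 42.8454% with at most 5% mitochondrial UMIs, 27.793% and 43.1% without cells above 2 times the median UMIs, 30.8% and 43.3% in unmarked cells (no Mki67 or Top2a UMI), 27.9% and 42.9% as means over cells, 27.5% and 42.6% with canonical members alone, and 28.8% and 44.4% without mitochondrial UMIs in the denominator. For canonical members past 0.5 on activation, 5 were lower with at most 5% mitochondrial UMIs, and 10 were higher and 5 lower in unmarked cells. From day 3 to day 5 without cytokine, 5 were past 0.5 and higher with at most 5% mitochondrial UMIs, 28 were higher at any size and 3 past 0.5 in unmarked cells, and 5 were past 0.5 and lower with TMM. For 50 IU/mL IL-2v on day 5 against none, 16 were past 0.5 and lower in unmarked cells, and with TMM 6 were higher at any size, 1 past 0.5 and higher and 48 past 0.5 and lower. The number of canonical members with a median above 0 for IL-2v against IL-2 was 49 without day 5 and 16 without day 10, so the direction of the count turned with day 5. For IL-2v against IL-15 it was 6 with TMM, 7 with totals without ribosomal protein and mitochondrial genes and 21 without day 5. For the higher dose it was for IL-2 15 with those totals; for IL-2v 4 with TMM, 22 leaving out day 3 and 31 leaving out day 5; and for IL-15 10 with TMM, 18 with those totals and 43 leaving out day 5, which turned the direction of that count. The cause was not tested.

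TMM moved the median of all genes by over 0.1 in 11 of 22 comparisons, 8 of them with a library without cytokine, whose values stand in the report but for that of day 3 to day 5 without cytokine, 0.12, with the median of canonical members at 0.15. In the others it moved to 0.01 for day 5 against day 3, to 0.06 for day 10 against day 5 and to -0.03 for the dose of IL-2v, with the medians of canonical members at 0.19, 0.33 and -0.32. The median of canonical members changed sign with TMM in 1 of the 22, 50 IU/mL IL-15 on day 5 against none. No paired analysis was possible because the replicate numbers only name the 1 library of each condition and pair no samples. Pairs of equal day and dose were compared one by one, and an additive model over day, cytokine and dose was not fitted. Depth limits the paralogs Rpl3l and Rpl39l, which were near 0.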

Other observations

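The mitochondrial ribosomal protein genes, which serve the separate ribosome of that organelle, differed from the cytosolic family in some comparisons and went the same way in others. Their 78 members summed to 4231 CPM in naive cells, the lowest of the 21 libraries, and 6198 CPM with 50 IU/mL IL-2v on day 3, the highest. On activation 24 of the 71 with at least 20 CPM in either arm were at least 0.5 higher (22.2% of all genes) and 2 lower (27.5%). Their median log2 difference was 0.31, where canonical cytosolic members had a median of -0.12 and all genes -0.11. From day 3 to day 5 with cytokine the median was -0.31, against 0.08 for canonical cytosolic members and -0.10 for all genes. From day 5 to day 10 both medians were above 0, at 0.12 and 0.15, and with 50 IU/mL IL-2 on day 5 against no cytokine both were below 0, at -0.18 and -0.11.

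Among regulators of ribosome production and mTOR signalling, Mycn, a relative of Myc, was at 0 to 1.08 CPM in the naive library and without cytokine, and reached 37.6 CPM with 50 IU/mL IL-2 and 29.5 CPM with 50 IU/mL IL-2v on day 10, with 0 and 1.82 CPM with 5 and 50 IU/mL IL-15. Sesn2, a leucine sensor that restrains mTOR, was 26.2 CPM with 50 IU/mL IL-2v on day 3 against 4.63 CPM without cytokine, and 43.7 CPM with 50 IU/mL IL-2 on day 10. Its relative Sesn3 was 35.4 CPM with 50 IU/mL IL-2v against 68.4 CPM without cytokine on day 3. In that comparison 17 of the 22 listed regulators had at least 20 CPM in either arm. Of these, 8 were at least 0.5 higher (27.3% of all genes) and 2 lower (8.75%).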
